A study of Homo sapiens with 12 samples.

Results

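The 50 genes described here encode the machinery that copies DNA at the replication fork. They were picked by gene name, and all 50 were found among the 61541 Ensembl genes of the deposited table and passed the filter of at least 1 TPM in at least 3 libraries, as 15478 genes did. RNA was sequenced from K562, an established line of BCR::ABL1-positive chronic myeloid leukemia cells, after 12 h in 4 conditions of 3 libraries each: 0.5 µM imatinib with 25 µM MLN4924, 0.5 µM imatinib, 25 µM MLN4924, and control. Imatinib is an inhibitor of the ABL1 kinase, and MLN4924 is an inhibitor of the enzyme that activates NEDD8, the ubiquitin-like protein that is joined to cullins. The study asked how MLN4924 changes the response to imatinib. All libraries come from this single cell line, and nothing in the labels says whether the 3 libraries of a group are separate cultures, so the p-values measure only the spread between libraries, which may be technical.

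Replication begins at origins bound by the origin recognition complex (ORC), onto which the ring of MCM2 to MCM7 is loaded. The CDC7-DBF4 kinase, MCM10, CDC45 and the GINS complex turn this ring into the active helicase, which unwinds the helix ahead of DNA polymerase alpha-primase, polymerase epsilon on the leading strand and polymerase delta on the lagging strand. The clamp PCNA, its loader RFC, the single-strand binding protein RPA, the nuclease FEN1 and the ligase LIG1 complete the Okazaki fragments, while other members supply deoxynucleotides, protect the fork and rebuild chromatin behind it. Many of these genes are known as targets of the E2F factors, which act at the passage from G1 into S phase.

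Transcript abundance is given in TPM (relative transcript abundance, scaled by transcript length and library total), and a member's own level can be compared between groups on this scale. In control cells the group means ran from 19.0 TPM for POLD3 to 458 TPM for CDC45, with a median of 57.1 TPM. Of the 50 members, 13 averaged at least 100 TPM in control cells and 8 averaged less than 30 TPM. Over all 12 libraries the lowest value was 12.5 TPM (TIPIN) and the highest 489 TPM (CDC45). The highest of a member's 4 group means was between 1.06 and 1.66 times the lowest, with a median of 1.29 times. So the members were all well expressed, and none was switched on or off by either drug. In GENCODE release 44, exons of 21 of the 50 genes are overlapped by an exon of a gene on the other strand (MCM2, GINS2, POLA2, PRIM1, RPA3, LIG1 and DUT among the genes described below), and whether reads were assigned by strand is not given in the sources used here. Protein-coding genes on the same strand share exonic bases with FEN1 (FADS2), PRIM1 (NACA and an unnamed gene), CHAF1B (MORC3), POLD1 and POLA2 (an unnamed gene each), which assignment by strand would not separate. Pseudogenes are named after 11 of the 50 genes, among them DUT, POLD2, RFC3, RPA3 and TIPIN. The values of these genes can hold reads of the overlapping gene or copy.

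All 12 markers of K562 cells (erythroid and megakaryocytic genes with BCR and ABL1) were at 1 TPM or more in every library. Their summed level was 15469 to 21353 TPM with imatinib + MLN4924, 33215 to 43490 TPM with imatinib, 13545 to 15487 TPM with MLN4924 and 14313 to 14941 TPM in control cells. The 7 epithelial and fibroblast markers summed to at most 0.81 TPM in any library, with KRT5 at 0 throughout. Of the 6 lymphoid markers, MS4A1 and CD2 were at 0 in every library, and the sum of the list, mostly CD3D, was 14.8 to 29.96 TPM with the combination, 5.25 to 14.2 TPM with imatinib, 40.7 to 60.3 TPM with MLN4924 and 38.8 to 46.1 TPM in control cells. The mitochondrially encoded genes made up 14.9% to 15.7% of the TPM with the combination, 17.4% to 18.2% with imatinib, 12.7% to 13.8% with MLN4924 and 12.8% to 13.6% in control cells, and their part in the results on the fork genes was not tested. With a scaling by the median of ratios, which does not depend on a few abundant genes, no call of a fork gene was lost.

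**Figure D1:**
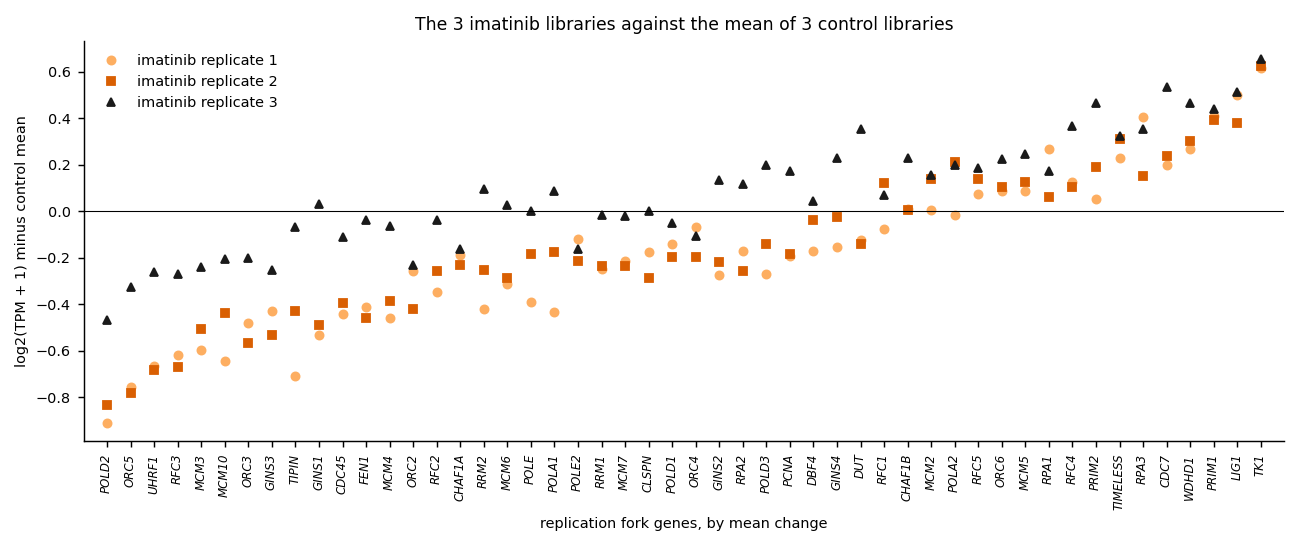
Each fork gene (x axis, ordered by its mean change) in each of the 3 imatinib libraries, as log2(TPM + 1) minus the mean of the 3 control libraries (y axis). The dark triangles of replicate 3 lie above the other 2 libraries for 44 of the 50 genes.

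One imatinib library stood apart. Replicate 3 was the highest of the 3 imatinib libraries for 44 of the 50 fork genes and the lowest for none, at a median of 0.26 on the log2 scale above the mean of the other 2. In the other groups, the library numbered 3 was the highest for 31 genes in control cells, 26 with imatinib + MLN4924 and 10 with MLN4924. The summed TPM of the fork genes was 4054 and 4125 in imatinib replicates 1 and 2 and 4890 in replicate 3, against 4657 to 4812 in the control libraries. Relative to the control mean, 35, 33 and 20 of the 50 genes were lower in imatinib replicates 1, 2 and 3. The share of mitochondrial transcripts in replicate 3 (17.4%) was that of replicate 1 (17.4%), and the cause of its higher fork gene levels was not tested. The counts of fork genes called with imatinib alone are therefore given with all libraries and without this one. Since it was set apart by the levels of these same genes, results without it are a description. In bulk RNA, fewer cells in S phase and less RNA of these genes per cell cannot be told apart.

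Promoter sequences were at hand for 44 of the 50 genes, in 61 windows that run from 250 bases before to 50 bases after a RefSeq transcription start. A match to an E2F site (TTTCCCGC, TTTGGCGC, TTTCGCGC or TTTGCCGC, either strand) lay in 21 of the 61 windows (34.4%), against 5.10% of the 14532 windows of genes tested and 3.31% of all 35116 windows. The CCAAT box (CCAAT, either strand) was found in 52.5% of the fork gene windows, against 35.1% of those of genes tested. The E-box (CACGTG, its own reverse complement) was found in 11.5% against 9.63%, and the CHR element (TTTGAA, either strand) in 4.92% against 10.46%. A window counted once however many matches it held, so overlapping matches were not counted apart. By gene, 20 of the 44 genes held an E2F match. Split by the response to imatinib, an E2F match was found in 2 of the 6 higher genes with a window, 6 of the 13 lower genes and 12 of the 25 genes that did not pass. A letter match is a description of the sequence and does not show that a factor binds there.

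**Figure D2:**
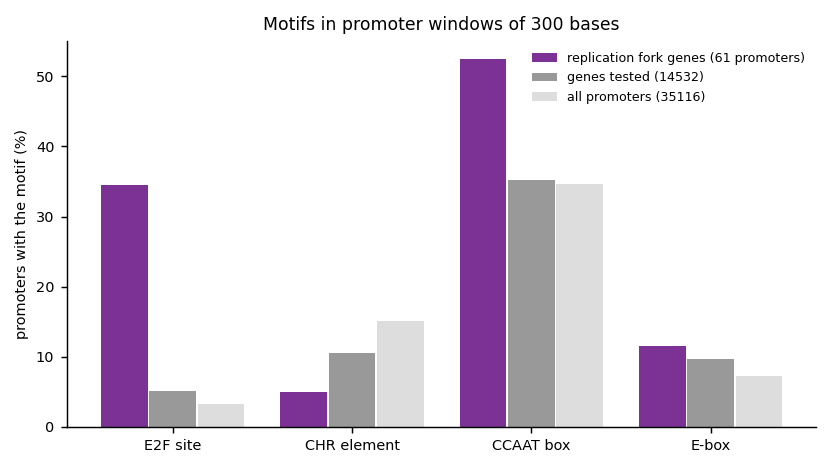
Share of promoter windows (%, y axis) that hold each of 4 motifs (x axis), for the 61 windows of fork genes, 14532 windows of genes tested and all 35116 windows. The E2F site was in 34.4% of the fork gene windows against 5.10% of those of genes tested.

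The 250 bases before the start are printed for 6 genes, chosen as members of the machine that passed in different comparisons: MCM3, RFC3 and POLD2 were lower with imatinib, MCM2 and POLA2 were lower with MLN4924, and LIG1 was higher with imatinib. Capitals mark the motif matches, and the sequences are RefSeq's on GRCh38.p14, 5′ to 3′ on the strand of the gene.
MCM3, chr6:52284743-52284992, - strand: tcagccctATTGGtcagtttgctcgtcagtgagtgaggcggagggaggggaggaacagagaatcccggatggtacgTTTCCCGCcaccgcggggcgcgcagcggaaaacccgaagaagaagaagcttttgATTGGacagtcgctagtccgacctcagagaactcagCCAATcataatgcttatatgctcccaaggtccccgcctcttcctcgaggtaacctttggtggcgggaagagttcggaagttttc
RFC3, chr13:33817899-33818148, + strand: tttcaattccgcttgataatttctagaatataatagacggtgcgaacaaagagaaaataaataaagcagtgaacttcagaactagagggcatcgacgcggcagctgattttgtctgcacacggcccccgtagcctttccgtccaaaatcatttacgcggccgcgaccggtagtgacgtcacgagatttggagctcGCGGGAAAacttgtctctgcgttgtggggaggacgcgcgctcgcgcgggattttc
POLD2, chr7:44123549-44123798, - strand: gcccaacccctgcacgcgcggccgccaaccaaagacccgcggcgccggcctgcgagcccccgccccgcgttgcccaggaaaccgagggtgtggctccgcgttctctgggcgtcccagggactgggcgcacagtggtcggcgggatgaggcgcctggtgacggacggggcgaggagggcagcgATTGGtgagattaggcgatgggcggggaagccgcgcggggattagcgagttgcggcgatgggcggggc
MCM2, chr3:127598161-127598410, + strand: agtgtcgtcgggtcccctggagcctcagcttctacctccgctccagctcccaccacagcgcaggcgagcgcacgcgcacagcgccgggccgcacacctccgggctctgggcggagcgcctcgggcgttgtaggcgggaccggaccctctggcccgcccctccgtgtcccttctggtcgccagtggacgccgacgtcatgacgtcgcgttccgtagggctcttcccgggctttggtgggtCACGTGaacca
POLA2, chr11:65261712-65261961, + strand: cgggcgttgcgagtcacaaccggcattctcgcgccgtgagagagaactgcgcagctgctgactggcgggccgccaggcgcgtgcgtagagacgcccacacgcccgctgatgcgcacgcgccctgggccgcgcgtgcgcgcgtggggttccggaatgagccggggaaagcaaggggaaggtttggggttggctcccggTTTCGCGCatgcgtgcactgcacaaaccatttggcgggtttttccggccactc
LIG1, chr19:48170345-48170594, - strand: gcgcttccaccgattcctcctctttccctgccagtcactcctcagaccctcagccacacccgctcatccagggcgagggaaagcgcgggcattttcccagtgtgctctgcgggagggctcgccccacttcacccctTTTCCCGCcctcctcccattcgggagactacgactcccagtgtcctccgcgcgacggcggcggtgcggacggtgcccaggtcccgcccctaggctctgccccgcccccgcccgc

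MCM3 carried an E2F match 174 to 167 bases before its start and 3 CCAAT matches. The single match in RFC3 was an E2F site on the reverse strand, 55 to 48 bases before the start, and POLA2 held one 53 to 46 bases before. LIG1 carried its E2F match 114 to 107 bases before the start. POLD2, the gene with the largest fall under imatinib, held a CCAAT match and none of the E2F letters in these bases. In MCM2 the letters before the start matched the E-box, 11 to 6 bases before it. MCM2 also held an E2F match in its whole window, but not within the printed bases. In GENCODE the protein-coding gene POLD2 spans chr7:44114631-44124358 on the reverse strand, so its RefSeq window lies inside the annotated gene, and MCM2 spans chr3:127598410-127622436 on the forward strand.

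Imatinib shifted part of the fork genes in both directions. With imatinib, 14 of the 50 genes (28%) were lower and 7 (14%) were higher than in control cells by limma at an adjusted p under 0.05. Log2 fold changes of single genes are given ± SE. Over all genes tested, 27.5% were lower and 26.3% higher, so the share of lower fork genes was close to this background and that of higher ones was below it. This background includes genes at low levels, whereas no fork gene was below 12.5 TPM in any library. With a filter of at least 5 TPM in at least 3 libraries, 3965 of 11118 genes were lower and 2914 higher. Their median log2 fold change was -0.07, so part of the distance to the fork genes goes with expression level. The genes with the largest falls were POLD2, ORC5, UHRF1, RFC3 and MCM3, and those with the largest rises were TK1, LIG1, PRIM1, WDHD1 and CDC7. The median log2 fold change of the 50 genes was -0.13, against 0.02 over all genes tested, and it was -0.08 without imatinib replicate 1, -0.09 without replicate 2 and -0.21 without replicate 3. Without imatinib replicate 3, the count of lower fork genes was 26 in place of 14, with all 14 of the first count among them. That is 52% of the members, where 28.4% of all genes tested were lower in the same fit. Imatinib replicate 3 was set apart by the levels of these same genes, so this excess can follow from that choice and is a description. The count of higher fork genes was 5 (10%) in place of 7, where 25.8% of all genes tested were higher. The 12 genes that passed only then were MCM6, MCM7, GINS1, GINS2, POLA1, POLD1, POLE, PCNA, RFC2, RPA2, RRM1 and RRM2, at log2 fold changes of -0.17 (POLD1) to -0.51 (GINS1). Without imatinib replicate 1 or replicate 2, 10 fork genes were lower, where 3633 and 3712 of the 15478 genes tested were. In all, 13 of the 21 calls held whichever library was left out (ORC2, ORC3, ORC5, MCM3, CDC45, GINS3, POLD2, RFC3, UHRF1, LIG1, TK1, TIMELESS and WDHD1).

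The other calls with imatinib were lost in at least one fit that left out a library. MCM10 lost its call without imatinib replicate 1 (adjusted p = 0.0585), CDC7 without control replicate 2 (adjusted p = 0.0535), and CHAF1A without either of 2 libraries (adjusted p up to 0.0590, without imatinib replicate 2). FEN1 lost its call without any one of 3 libraries (up to 0.0932, without imatinib replicate 2), TIPIN without any one of 4 (up to 0.159, without imatinib replicate 1), PRIM1 without any one of 5 (up to 0.133, without control replicate 1), RPA3 without any one of 6 (up to 0.127, without imatinib replicate 1) and MCM4 without any one of 7 (up to 0.152, without imatinib replicate 1). The calls lost without imatinib replicate 3 were those of PRIM1 (adjusted p = 0.0683) and RPA3 (adjusted p = 0.0889). The signs stayed as they were in all of these fits.

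MLN4924 alone lowered a few fork genes and raised none past the threshold. Against control, 7 of the 50 genes (14%) were lower by limma, where 7.11% of all genes tested were lower. No fork gene passed as higher, where 7.36% of all genes tested did, and at an unadjusted p under 0.05 there were 3 higher and 10 lower fork genes (6% and 20%), where 14.1% and 14.2% of all genes tested were higher and lower. The 7 lower genes were DUT, POLA2, MCM2, POLD1, GINS2, MCM5 and TIMELESS. The median log2 fold change of the 50 genes was -0.08, against -0.004 over all genes tested, and 35 of the 50 had a value below 0. The fork gene median was -0.04 without control replicate 3, -0.05 without MLN4924 replicate 3 and -0.11 without MLN4924 replicate 1. MCM2, POLD1 and DUT passed whichever library was left out. TIMELESS lost its call without MLN4924 replicate 3 (adjusted p = 0.0505), and without the same library the adjusted p reached 0.0989 for POLA2 (lost without any one of 4 libraries), 0.126 for GINS2 (without any one of 8) and 0.159 for MCM5 (without any one of 8). Without MLN4924 replicate 3 only 3 genes passed as lower, and without MLN4924 replicate 2 or control replicate 2 only 4 did. Over all 15478 genes tested, 680, 702 and 724 were lower in these fits, against 1100 with all libraries. GINS4 passed as higher without control replicate 2 (log2 fold change 0.62), a gene with 41.3 TPM in that library and 26.8 and 25.3 TPM in the other control libraries. RRM1 passed as higher without control replicate 3 (0.26) or without imatinib replicate 3 (0.20), and CHAF1B without imatinib replicate 3 (0.20).

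With the 2 drugs together, most fork genes did not pass against control. Their median log2 fold change was still -0.08 (-0.02 without control replicate 3), and 30 of the 50 were below 0. The summed TPM of the fork genes was 4450 ± 101 with the combination, 4356 ± 463 with imatinib, 4427 ± 125 with MLN4924 and 4735.5 ± 77.5 in control cells (SD, n = 3 each). With imatinib + MLN4924, 5 genes (10%) were lower than in control cells (GINS2, POLD1, POLD2, MCM2 and MCM6) and 4 (8%) were higher (LIG1, PRIM2, TK1 and CHAF1B), while 13.9% of all genes tested were lower and 12.2% higher. MCM2, POLD1 and LIG1 passed whichever library was left out. The other calls were lost without some library, with an adjusted p of up to 0.0610 for GINS2, 0.140 for MCM6, 0.109 for POLD2 and 0.163 for TK1 (each without imatinib + MLN4924 replicate 1), 0.114 for PRIM2 (without control replicate 2) and 0.0978 for CHAF1B (without control replicate 1). The count of lower genes was 10 (20%, against 16.3% of all genes tested) without imatinib replicate 3, a library that enters this comparison only through the estimate of the spread, and 2 without imatinib + MLN4924 replicate 1. Without control replicate 2 or imatinib + MLN4924 replicate 1 only 1 gene was higher, without control replicate 1 or imatinib + MLN4924 replicate 2 only 2 were, and without control replicate 2, control replicate 3 or imatinib + MLN4924 replicate 2 only 3 genes were lower. Over all 15478 genes tested, 1317 to 1493 were higher and 1396 to 1673 lower in these fits, against 1896 and 2156 with all libraries.

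Set against imatinib alone, the addition of MLN4924 moved 17 fork genes, again in both directions. With the combination, 9 genes (18%) were higher than with imatinib, where 22.6% of all genes tested were higher, and 8 (16%) were lower, where 20.5% of all genes tested were lower. The largest differences upward were in ORC3, RFC3, UHRF1, POLD2 and ORC5, and the largest downward in POLA2, PRIM1, MCM2, MCM5 and TK1. Without imatinib replicate 3, 18 genes (36%) were higher, where 25% of all genes tested were, and the genes gained were CDC45, GINS1, GINS3, MCM10, POLA1, PCNA, RRM2, TIPIN and CHAF1B. Without imatinib replicate 1, imatinib replicate 2 or imatinib + MLN4924 replicate 3, only 3 genes were higher. Over all 15478 genes tested, 2575, 2635 and 2695 were higher in these fits, against 3492 with all libraries. In all, 10 of the 17 calls held whichever library was left out: ORC3, RFC3 and RRM1 were higher, and MCM2, MCM5, POLA2, POLD1, TK1, TIMELESS and WDHD1 were lower. Among the others the adjusted p reached 0.0653 for PRIM1 (without imatinib + MLN4924 replicate 3), 0.0616 for UHRF1 and 0.113 for ORC5 (without imatinib replicate 2), 0.0738 for POLD2 and 0.0987 for MCM3 (without imatinib replicate 1), 0.148 for CLSPN (without imatinib + MLN4924 replicate 3) and 0.185 for FEN1 (without imatinib replicate 2).

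**Figure D3:**
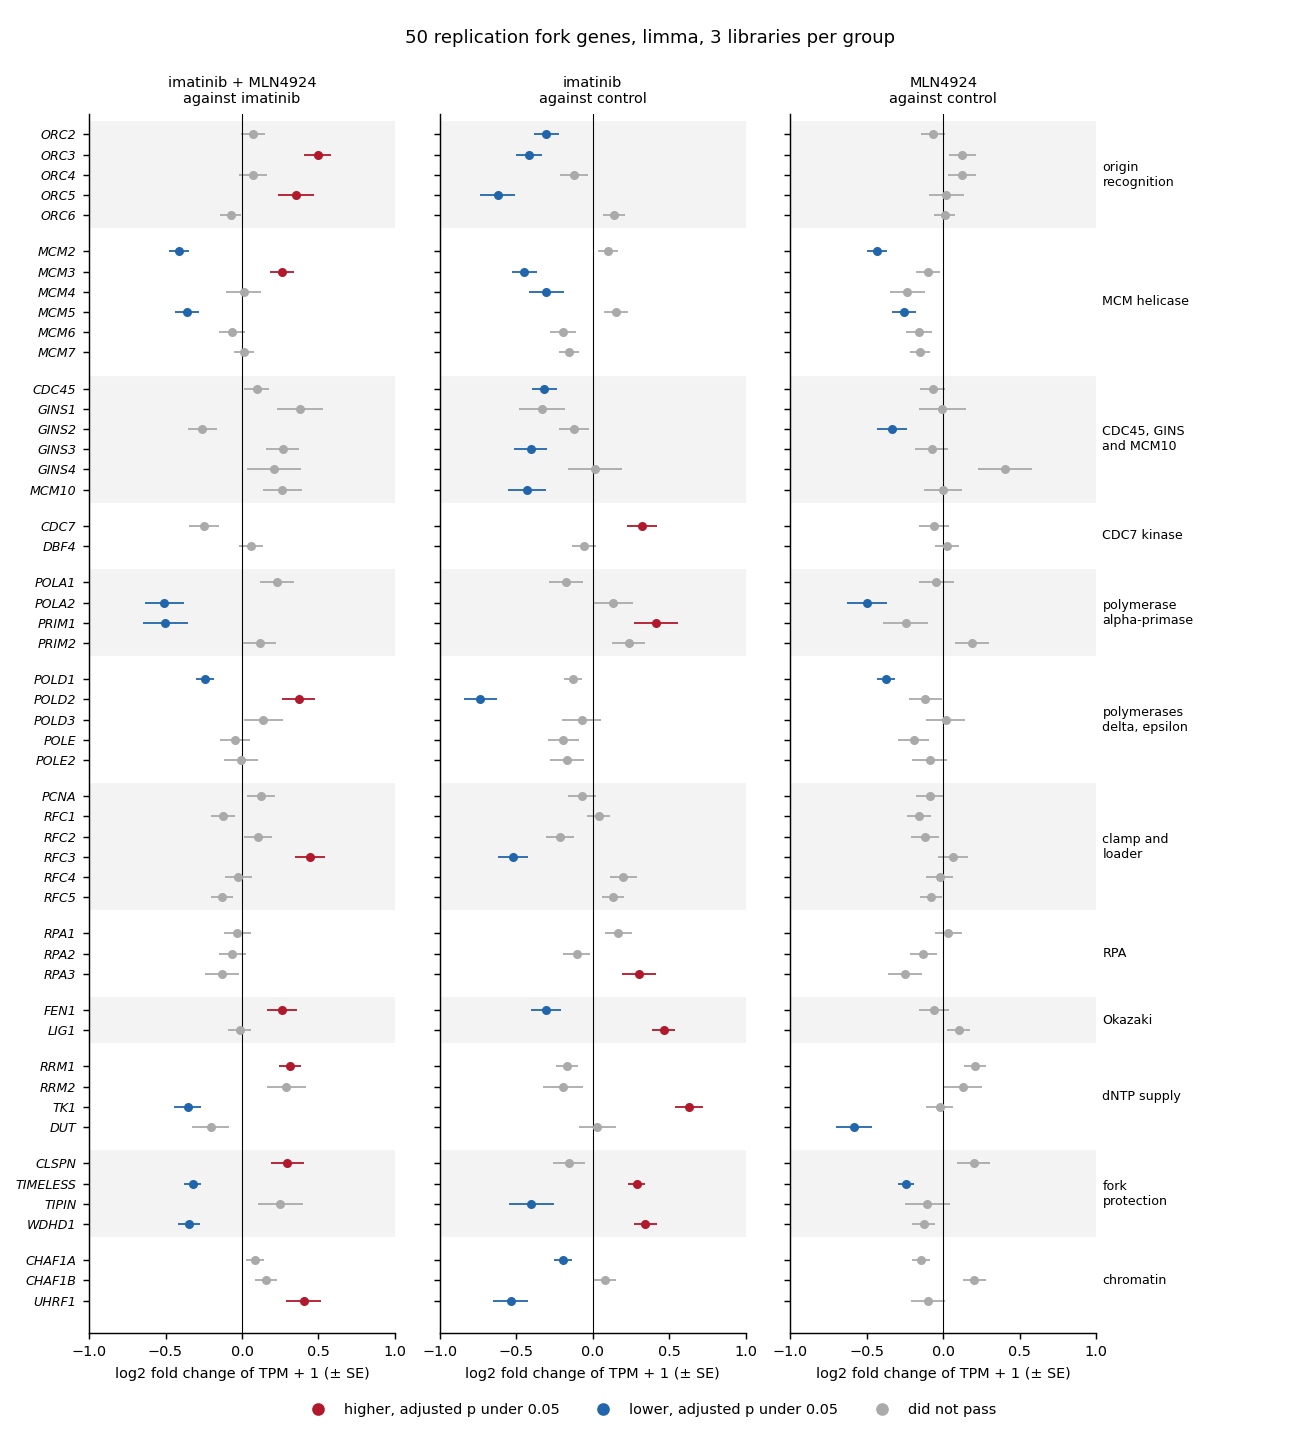
Log2 fold change of TPM + 1 with its standard error (x axis) for the 50 fork genes, grouped by role (y axis), in 3 comparisons of 3 libraries each. Coloured points passed limma's adjusted p under 0.05, with 9 higher and 8 lower for the combination against imatinib, 7 higher and 14 lower for imatinib against control, and none higher and 7 lower for MLN4924 against control.

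In the presence of MLN4924, the imatinib change was small for most fork genes. With the combination against MLN4924 alone, 5 genes (10%) were higher (RPA3, DUT, LIG1, TK1 and TIMELESS) and none was lower, where 7.73% of all genes tested were higher and 8.48% lower. At an unadjusted p under 0.05, 6 fork genes (12%) were higher and 2 (4%) lower, against 14.7% and 16.7% of all genes tested. POLD2 passed as lower (-0.25, adjusted p = 0.0381) without imatinib replicate 3, which enters only through the estimate of the spread. All 5 calls were lost without some library, TK1 without any one of 9 (adjusted p up to 0.168, without imatinib + MLN4924 replicate 1), DUT without any one of 7 (up to 0.1085, without MLN4924 replicate 2), TIMELESS without any one of 5 and RPA3 without any one of 4 (up to 0.0909 and 0.109, both without imatinib + MLN4924 replicate 2) and LIG1 without either of 2 (up to 0.0591, without imatinib + MLN4924 replicate 1), and without imatinib + MLN4924 replicate 1 or replicate 2 no gene was higher. In the fits without imatinib + MLN4924 replicate 1 or replicate 2, 542 and 561 of all 15478 genes tested were higher, against 1196 with all libraries. The 14 genes that were lower with imatinib against control had a median log2 fold change of -0.41 there and of -0.07 for the combination against MLN4924. The 7 genes that were higher with imatinib had medians of 0.34 and 0.21, and 4 of them (LIG1, RPA3, TIMELESS and TK1) passed in both, 4 of the 5 that passed with the combination against MLN4924. Over all genes tested, 24.2% of those higher with imatinib also passed as higher for the combination against MLN4924, and 82.3% of the second set were in the first. These genes were chosen by the first of the 2 comparisons, so the smaller size in the second is a description. The difference itself is the interaction, which is 0 where imatinib changes a gene equally with and without MLN4924 on the log2 scale. POLD2 (2% of the 50) passed as higher (0.49 ± 0.15, adjusted p = 0.0497), where 9.06% of all genes tested did, and none as lower, where 7.35% did. At an unadjusted p under 0.05 there were 9 positive (18%) and 1 negative (2%) fork genes, against 17.6% and 15.6% of all genes tested. Without imatinib replicate 3 the count of positive genes was 14 (28%), where 15.3% of all genes tested were positive, and without any one of 10 other libraries it was 0. In those 10 fits, 574 to 1232 of the 15478 genes tested were positive, against 1402 with all libraries.

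**Figure D4:**
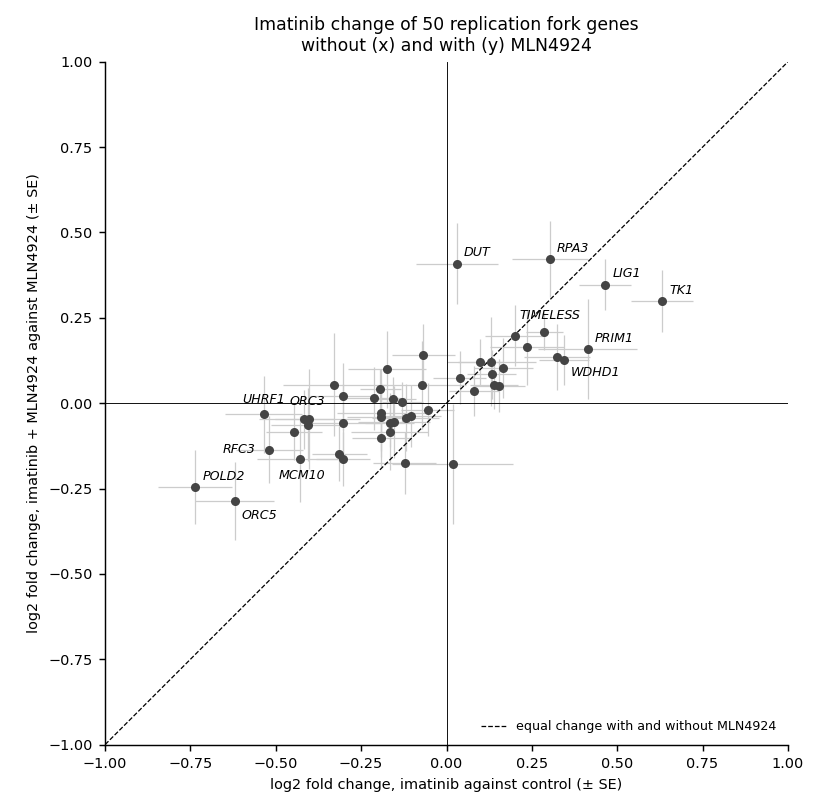
Log2 fold change of each of the 50 fork genes for imatinib against control (x axis) and for imatinib + MLN4924 against MLN4924 (y axis), with standard errors and a dashed line of equal change. The 2 axes share no library, and the 14 genes that passed as lower on the x axis lie at a median of -0.41 there and -0.07 on the y axis.

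Among the subunits of the origin recognition complex, 3 of 5 were lower with imatinib, where 27.5% of all genes tested were. So few genes cannot be set against that share. ORC3, a core subunit, responded in both comparisons with imatinib alone. ORC3 had 74.5, 78.2 and 79.8 TPM with imatinib + MLN4924, 52.2, 49.2 and 63.8 TPM with imatinib, 77.6, 84.3 and 78.5 TPM with MLN4924 and 71.2, 72.8 and 76.2 TPM in control cells. The imatinib libraries were the 3 lowest of the 12, with no overlap. The log2 fold change of ORC3 was -0.42 ± 0.09 (SE, adjusted p = 0.00183) for imatinib against control, and 0.49 ± 0.09 (SE, adjusted p = 0.00108) for the combination against imatinib. ORC5 had 30.1, 33.1 and 33.6 TPM with imatinib + MLN4924, 22.7, 22.3 and 30.9 TPM with imatinib, 41.6, 40.3 and 36.9 TPM with MLN4924 and 35.9, 40.5 and 40.8 TPM in control cells. ORC5 was lowest with imatinib, but replicate 3 of that group (30.9 TPM) lay above combination replicate 1 (30.1 TPM). Its log2 fold change was -0.62 ± 0.12 (SE, adjusted p = 0.00085) for imatinib against control, and 0.35 for the combination against imatinib. ORC2, the subunit with the lowest level of the 5, was lower with imatinib by limma (-0.30 ± 0.08, adjusted p = 0.0072). ORC4 and ORC6, the least tightly bound subunit, passed in no comparison, at log2 fold changes of -0.12 and 0.14 with imatinib.

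Of the 6 subunits of the MCM ring, 4 passed with a single drug. Over all genes tested, 27.5% were lower with imatinib and 7.11% with MLN4924, shares that so few genes cannot be set against. MCM3 and MCM4 were lower with imatinib, while MCM2 and MCM5 were lower with MLN4924 and had log2 fold changes above 0 with imatinib. MCM2 had 88.7, 85.3 and 93.8 TPM with imatinib + MLN4924, 112, 122 and 124 TPM with imatinib, 88.6, 79.3 and 78.5 TPM with MLN4924 and 114, 109.7 and 109 TPM in control cells. The 6 libraries with MLN4924, alone or in combination, were all below the 6 without it. For MCM2 the log2 fold change was -0.43 ± 0.07 (SE, adjusted p = 0.00158) for MLN4924 against control, -0.41 ± 0.07 (SE, adjusted p = 0.000667) for the combination against imatinib and -0.31 ± 0.07 (SE, adjusted p = 0.00583) for the combination against control. With imatinib against control it was 0.10, which did not pass. MCM5 had 59.97, 63.2 and 68.6 TPM with imatinib + MLN4924, 78.6, 80.7 and 87.8 TPM with imatinib, 66.5, 60.7 and 57.9 TPM with MLN4924 and 78.9, 73.1 and 69.9 TPM in control cells. As with MCM2, the libraries with MLN4924 were the 6 lowest. The log2 fold change of MCM5 was -0.36 ± 0.08 (SE, adjusted p = 0.00344) for the combination against imatinib and -0.26 ± 0.08 (SE, adjusted p = 0.0462) for MLN4924 against control.

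MCM3 showed the other order. MCM3 had 207, 189 and 201 TPM with imatinib + MLN4924, 149, 159 and 192 TPM with imatinib, 213, 206 and 214 TPM with MLN4924 and 230.5, 218 and 231 TPM in control cells. All 3 imatinib libraries were below all control and MLN4924 libraries, and replicate 3 (192 TPM) lay above combination replicate 2 (189 TPM). The log2 fold change of MCM3 was -0.45 ± 0.08 (SE, adjusted p = 0.000756) for imatinib against control and 0.26 ± 0.08 (SE, adjusted p = 0.0229) for the combination against imatinib. The ratio of MCM2 to MCM3 within each library, which does not depend on the scaling of the library, was 0.449 ± 0.020 with imatinib + MLN4924, 0.720 ± 0.065 with imatinib, 0.389 ± 0.025 with MLN4924 and 0.491 ± 0.017 in control cells (SD, n = 3 each). The groups did not overlap in any of the 5 pairs compared, and each exact permutation test (two-sided) gave p = 0.1, the smallest that 3 against 3 libraries allow. MCM2 and MCM3 passed in opposite directions for the combination against imatinib in these same libraries, so their ratio is a description. MCM4, the subunit with the highest level, was lower with imatinib (-0.30 ± 0.11, adjusted p = 0.0402). MCM6 had 78.4, 80.5 and 86.1 TPM with imatinib + MLN4924, 78.5, 79.9 and 99.5 TPM with imatinib, 89.8, 86.6 and 86.3 TPM with MLN4924 and 93.4, 96.97 and 103 TPM in control cells. MCM6 was lower with the combination than in control cells (-0.26 ± 0.09, adjusted p = 0.0464), with all 3 combination libraries below all 3 control libraries. MCM7 passed in no comparison with all libraries, at a log2 fold change of -0.16 with imatinib and -0.15 with MLN4924. MCM6 (-0.30, adjusted p = 0.0020) and MCM7 (-0.22, adjusted p = 0.00628) also passed as lower with imatinib once its replicate 3 was left out. Summed over the 6 subunits, the ring genes were at 1036 ± 54.5 TPM with the combination, 1053 ± 114 TPM with imatinib, 1056 ± 59.9 TPM with MLN4924 and 1211 ± 29.7 TPM in control cells (SD, n = 3 each).

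**Figure D5:**
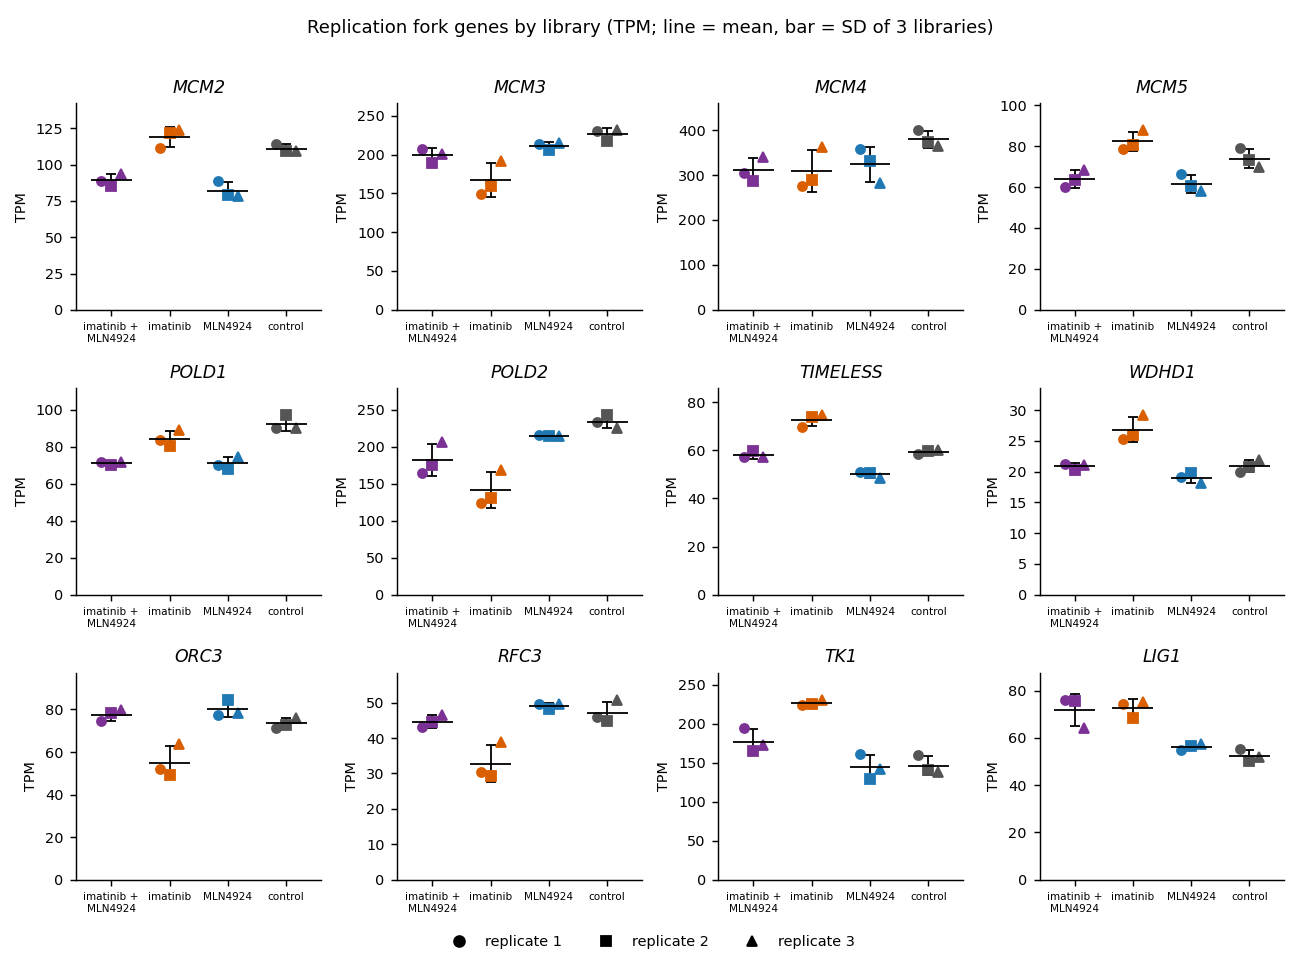
TPM (y axis, from 0) of 12 fork genes in each of the 12 libraries, by group (x axis: imatinib + MLN4924, imatinib, MLN4924, control), with the group mean (line) and SD (bar). MCM2 and MCM5 are lowest in both groups with MLN4924, whereas MCM3, POLD2, ORC3 and RFC3 are lowest with imatinib alone.

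CDC45 and GINS join the ring to make the active helicase, and MCM10 helps to activate it. CDC45 was the fork gene with the highest level in control cells and was lower with imatinib, with 337, 347 and 424 TPM against 440.2, 443 and 489 TPM (-0.31 ± 0.08, adjusted p = 0.00626). MCM10 (-0.43 ± 0.13, adjusted p = 0.0129) and the GINS subunit GINS3 (-0.41 ± 0.11, adjusted p = 0.00766) were also lower with imatinib. GINS2 had 38.4, 39.96 and 43.6 TPM with imatinib + MLN4924, 43.7, 45.4 and 58.3 TPM with imatinib, 42.9, 42.4 and 40.2 TPM with MLN4924 and 53.7, 51.5 and 54.1 TPM in control cells. GINS2 was lower in all 6 libraries with MLN4924 than in any control library. Its log2 fold change was -0.34 ± 0.10 (SE, adjusted p = 0.041) for MLN4924 against control and -0.38 ± 0.10 (SE, adjusted p = 0.0154) for the combination against control. With all libraries, GINS3 passed only in the comparison of imatinib with control and GINS2 only in those that set MLN4924, alone or combined, against control. This difference between subunits was not itself tested, and without imatinib replicate 3 GINS2 was also lower with imatinib (-0.25, adjusted p = 0.0106). GINS1 and GINS4 did not pass in any comparison with all libraries.

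CDC7, the catalytic subunit of the kinase that fires origins, was higher with imatinib. CDC7 had 25.7, 29.5 and 28.7 TPM with imatinib + MLN4924, 30.5, 31.3 and 38.7 TPM with imatinib, 26.6, 24.9 and 24.5 TPM with MLN4924 and 25.7, 25.2 and 28.5 TPM in control cells. Its 3 imatinib libraries were above all others, at a log2 fold change of 0.32 ± 0.10 (SE, adjusted p = 0.0148) against control. The activating subunit DBF4 had values of 33.4 to 40.3 TPM in all 12 libraries and passed in no comparison.

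DNA polymerase alpha-primase starts each new strand with a short RNA-DNA primer. Its B subunit gene POLA2 was lower with MLN4924 than in control cells and with the combination than with imatinib. POLA2 had 28.2, 21.7 and 28.3 TPM with imatinib + MLN4924, 33.5, 39.3 and 39.1 TPM with imatinib, 27.9, 23.3 and 20.4 TPM with MLN4924 and 31.8, 36.6 and 33.4 TPM in control cells. The 6 libraries with MLN4924 were below the 6 without it. The log2 fold change of POLA2 was -0.51 ± 0.13 (SE, adjusted p = 0.00874) for the combination against imatinib and -0.50 ± 0.13 (SE, adjusted p = 0.0251) for MLN4924 against control. For the combination against control it was -0.38 ± 0.13 (SE, adjusted p = 0.0524), which did not pass. PRIM1 had 70.4, 82.3 and 64.6 TPM with imatinib + MLN4924, 102, 101 and 104 TPM with imatinib, 64.3, 66.5 and 62.8 TPM with MLN4924 and 62.7, 70.6 and 102 TPM in control cells. PRIM1, the catalytic primase subunit, was lower in every library with the combination than with imatinib, but control replicate 3 (102.0 TPM) reached the imatinib level and the other 2 control libraries did not. Its log2 fold change was -0.50 ± 0.15 (SE, adjusted p = 0.0167) for the combination against imatinib and 0.41 ± 0.15 (SE, adjusted p = 0.0319) for imatinib against control. PRIM2 had 27.8, 27.3 and 24.9 TPM with imatinib + MLN4924, 21.5, 23.7 and 28.9 TPM with imatinib, 25.9, 23.1 and 22.1 TPM with MLN4924 and 20.2, 19.4 and 22.6 TPM in control cells. The large primase subunit PRIM2 was higher with the combination than in control cells, without overlap (0.35 ± 0.11, adjusted p = 0.0356). POLA1, the catalytic polymerase subunit, passed in no comparison with all libraries.

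In polymerase delta, the lagging-strand enzyme, the catalytic subunit POLD1 was lower with MLN4924 and the second subunit POLD2 was lower with imatinib. POLD1 had 71.6, 69.8 and 71.6 TPM with imatinib + MLN4924, 83.6, 80.2 and 88.95 TPM with imatinib, 70.1, 68.2 and 74.5 TPM with MLN4924 and 90.04, 96.9 and 89.9 TPM in control cells. The 6 libraries with MLN4924 were the 6 lowest, between 68.2 and 74.5 TPM. POLD1 had a log2 fold change of -0.38 ± 0.06 (SE, adjusted p = 0.00203) for MLN4924 against control, -0.37 ± 0.06 (SE, adjusted p = 0.00128) for the combination against control and -0.24 ± 0.06 (SE, adjusted p = 0.00749) for the combination against imatinib. With imatinib against control it was -0.13 ± 0.06 (SE, adjusted p = 0.0881), and without imatinib replicate 3 it passed as lower there too (-0.17, adjusted p = 0.0331). POLD2 had 165, 175 and 206 TPM with imatinib + MLN4924, 124, 131 and 169 TPM with imatinib, 216, 215 and 214 TPM with MLN4924 and 233, 242 and 226 TPM in control cells. POLD2 was lowest with imatinib, and only replicate 3 of that group (169 TPM) reached into the combination group. The log2 fold change of POLD2 was -0.74 ± 0.11 (SE, adjusted p = 0.000176) for imatinib against control, the largest fall of a fork gene in that comparison, 0.37 ± 0.11 (SE, adjusted p = 0.0169) for the combination against imatinib and -0.37 ± 0.11 (SE, adjusted p = 0.0287) for the combination against control. The ratio of POLD1 to POLD2 within each library was 0.394 ± 0.043 with the combination, 0.605 ± 0.074 with imatinib, 0.330 ± 0.016 with MLN4924 and 0.395 ± 0.008 in control cells (SD, n = 3 each). Without overlap, this ratio was above control with imatinib and below control with MLN4924, and with the combination it was below imatinib and above MLN4924. Each of these comparisons gave p = 0.1 (exact permutation test, two-sided), the smallest possible, while the combination and control overlapped (p = 0.9). POLD3 and the polymerase epsilon genes POLE, the catalytic subunit of the leading-strand enzyme, and POLE2 passed in no comparison with all libraries, with log2 fold changes of -0.19 to -0.07 with imatinib.

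Among the clamp and its loader only RFC3 passed with all libraries. RFC3 had 42.99, 44.5 and 46.6 TPM with imatinib + MLN4924, 30.3, 29.2 and 38.8 TPM with imatinib, 49.6, 48.3 and 49.7 TPM with MLN4924 and 45.8, 44.8 and 50.7 TPM in control cells. The imatinib libraries were the 3 lowest of the 12, at a log2 fold change of -0.52 ± 0.10 (SE, adjusted p = 0.000903) against control, and the combination was higher than imatinib (0.45 ± 0.10, adjusted p = 0.00371). The clamp PCNA had 311 to 325 TPM with the combination, 267 to 344 TPM with imatinib, 282 to 293 TPM with MLN4924 and 283 to 331 TPM in control cells, and the ranges of imatinib and control overlap. RFC1, RFC2, RFC4 and RFC5 passed in no comparison with all libraries, with log2 fold changes of -0.21 (RFC2) to 0.20 (RFC4) with imatinib. Without imatinib replicate 3, PCNA (-0.19, adjusted p = 0.0261) and RFC2 (-0.30, adjusted p = 0.0114) passed as lower with imatinib, and PCNA as higher for the combination against imatinib (0.24, adjusted p = 0.00954). Of the RPA genes, RPA3, the smallest subunit, was higher in the presence of imatinib. RPA3 had 62.8, 69.3 and 53.8 TPM with imatinib + MLN4924, 72.6, 60.7 and 70.00 TPM with imatinib, 40.6, 46.4 and 50.95 TPM with MLN4924 and 53.5, 51.5 and 59.1 TPM in control cells. The 3 combination libraries were above all MLN4924 libraries (0.42 ± 0.11, adjusted p = 0.0273), and the 3 imatinib libraries above all control libraries (0.30 ± 0.11, adjusted p = 0.0386). RPA1 and RPA2 passed in no comparison with all libraries.

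LIG1 and FEN1, which act in sequence on the Okazaki fragment, went in opposite directions with imatinib. LIG1 had 75.95, 75.8 and 64.2 TPM with imatinib + MLN4924, 74.5, 68.3 and 75 TPM with imatinib, 54.9, 56.5 and 57.3 TPM with MLN4924 and 55.1, 50.2 and 51.8 TPM in control cells. The 6 libraries with imatinib, alone or combined, were above the 6 without it. The ligase gene LIG1 had a log2 fold change of 0.46 ± 0.08 (SE, adjusted p = 0.00034) for imatinib against control, 0.45 ± 0.08 (SE, adjusted p = 0.00155) for the combination against control and 0.35 ± 0.08 (SE, adjusted p = 0.0121) for the combination against MLN4924. FEN1, the flap endonuclease, was lower with imatinib than in control cells, at 126, 122.0 and 164 TPM against 177, 162 and 166 TPM, and here replicate 3 overlapped the control group (-0.30 ± 0.10, adjusted p = 0.0214).

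Of the genes of deoxynucleotide supply, the salvage enzyme TK1 (thymidine kinase) had the largest rise with imatinib of all fork genes. TK1 had 194, 164 and 172 TPM with imatinib + MLN4924, 224, 225 and 229.9 TPM with imatinib, 161, 129 and 142 TPM with MLN4924 and 159.6, 141 and 137 TPM in control cells. The imatinib libraries were the 3 highest of the 12 and the combination libraries lay between them and the control libraries. TK1 had a log2 fold change of 0.63 ± 0.09 (SE, adjusted p = 0.000147) for imatinib against control, 0.27 ± 0.09 (SE, adjusted p = 0.0438) for the combination against control and -0.36 ± 0.09 (SE, adjusted p = 0.0084) for the combination against imatinib. DUT had 85.2, 89.2 and 97.8 TPM with imatinib + MLN4924, 93.98, 92.7 and 131 TPM with imatinib, 71.6, 66.2 and 66.2 TPM with MLN4924 and 110.3, 103 and 94.5 TPM in control cells. DUT, which removes dUTP and so keeps uracil out of DNA, was lowest with MLN4924 alone. Its 3 libraries there were the lowest of the 12. The log2 fold change of DUT was -0.58 ± 0.12 (SE, adjusted p = 0.00771) for MLN4924 against control and 0.41 ± 0.12 (SE, adjusted p = 0.04) for the combination against MLN4924. RRM1, the large subunit of ribonucleotide reductase, was higher with the combination than with imatinib, at 149, 150.0 and 152 TPM against 114, 115 and 134 TPM (0.31 ± 0.07, adjusted p = 0.00498). RRM2, the small subunit, passed in no comparison with all libraries, with 161 to 230.2 TPM with imatinib and 189 to 238 TPM in control cells.

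TIMELESS and TIPIN form the complex that holds the helicase and polymerases together and protects the fork. TIMELESS was higher with imatinib and lower with MLN4924, each set against the same control libraries. TIMELESS had 56.98, 59.6 and 57.1 TPM with imatinib + MLN4924, 69.7, 73.8 and 74.5 TPM with imatinib, 50.9, 50.5 and 48.4 TPM with MLN4924 and 58.3, 59.6 and 60.2 TPM in control cells. The imatinib libraries were the 3 highest and the MLN4924 libraries the 3 lowest, with the combination and control in between. TIMELESS had a log2 fold change of 0.29 ± 0.05 (SE, adjusted p = 0.000892) for imatinib against control, -0.25 ± 0.05 (SE, adjusted p = 0.0107) for MLN4924 against control and -0.32 ± 0.05 (SE, adjusted p = 0.000783) for the combination against imatinib. TIPIN had 20.02, 18.9 and 17.7 TPM with imatinib + MLN4924, 12.5, 15.4 and 19.98 TPM with imatinib, 20.5, 17.9 and 20.1 TPM with MLN4924 and 18.4, 20.8 and 24.2 TPM in control cells. TIPIN was lower with imatinib by limma (-0.40 ± 0.15, adjusted p = 0.0377), although replicate 3 (19.98 TPM) lay within the control range. The ratio of TIMELESS to TIPIN was 3.08 ± 0.21 with the combination, 4.71 ± 0.93 with imatinib, 2.57 ± 0.23 with MLN4924 and 2.84 ± 0.34 in control cells (SD, n = 3 each). Imatinib and control did not overlap (exact permutation test, two-sided, p = 0.1, the smallest possible), and the combination and control did (p = 0.5). Over the 15 tests of the 3 ratios the smallest Benjamini-Hochberg adjusted p was 0.125. Each of the 3 ratios pairs subunits that passed in opposite directions in a comparison of these same libraries, so the ratios are no separate evidence.

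WDHD1 had 21.2, 20.3 and 21.1 TPM with imatinib + MLN4924, 25.4, 25.9 and 29.1 TPM with imatinib, 19.2, 19.7 and 18.1 TPM with MLN4924 and 19.9, 20.8 and 21.9 TPM in control cells. WDHD1, which couples polymerase alpha to the helicase, was highest in the 3 imatinib libraries. Its log2 fold change was 0.34 ± 0.07 (SE, adjusted p = 0.00224) for imatinib against control and -0.35 ± 0.07 (SE, adjusted p = 0.00334) for the combination against imatinib. CLSPN (claspin), which links the fork to the checkpoint, was higher with the combination than with imatinib (0.30 ± 0.11, adjusted p = 0.0399), with overlapping groups.

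Behind the fork, UHRF1, which brings the maintenance methyltransferase to newly copied DNA, was lower with imatinib. UHRF1 had 47.2, 45.5 and 55.8 TPM with imatinib + MLN4924, 33.8, 33.4 and 45.04 TPM with imatinib, 54.02, 47.8 and 49.8 TPM with MLN4924 and 53.9, 54.1 and 54.5 TPM in control cells. The 3 imatinib libraries were the 3 lowest of the 12. UHRF1 had a log2 fold change of -0.54 ± 0.11 (SE, adjusted p = 0.00198) for imatinib against control and 0.40 ± 0.11 (SE, adjusted p = 0.0139) for the combination against imatinib. CHAF1B had 33.2, 33.4 and 32.5 TPM with imatinib + MLN4924, 28.1, 27.9 and 32.8 TPM with imatinib, 31.9, 33.6 and 31.2 TPM with MLN4924 and 26.99, 27.6 and 29.00 TPM in control cells. CHAF1B, a subunit of the histone chaperone CAF-1, was higher with the combination than in control cells (0.24 ± 0.07, adjusted p = 0.0337), and its partner CHAF1A was lower with imatinib than in control cells (-0.19 ± 0.06, adjusted p = 0.0166).

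With all libraries, 32 of the 50 fork genes (64%) passed in at least 1 of the 6 comparisons, close to the 67.6% of all genes tested, and 18 passed in none: ORC4, ORC6, MCM7, GINS1, GINS4, DBF4, POLA1, POLD3, POLE, POLE2, PCNA, RFC1, RFC2, RFC4, RFC5, RPA1, RPA2 and RRM2. MLN4924 was added in 2 comparisons that share no library, to untreated cells and to cells with imatinib, and MCM2, MCM5, POLA2, POLD1 and TIMELESS were lower in both, 5 of the 7 genes (71.4%) that were lower against control and 5 of the 8 (62.5%) that were lower against imatinib. Over all genes tested the shares were 55.9% and 19.4%.

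Genes outside the fork list give the surroundings of these changes. Of 36 other replication genes (licensing factors, accessory polymerase subunits, nucleotide enzymes and histone chaperones), 11 were higher (30.6%) and 9 lower (25%) with imatinib against control, where 26.3% and 27.5% of all genes tested were. The topoisomerase TOP2A (0.73 ± 0.07, adjusted p = 1.11e-05) was among the largest rises, and the MCM-binding protein MCMBP (-0.90 ± 0.14, adjusted p = 0.000319), SAMHD1, which degrades deoxynucleotides (-0.79), and POLE3 (-0.79) were the largest falls. With MLN4924 against control, 5 of the 36 were higher, with the histone chaperone ASF1A at 0.43, and 1, CHTF18 (-0.37), was lower, which is 13.9% and 2.78% against 7.36% and 7.11% of all genes tested. With the combination, 9 were higher and 2 lower than in control cells, 9 were higher and 5 lower than with imatinib, and 8 were higher and none lower than with MLN4924. Over all genes tested the shares higher and lower were 12.2% and 13.9%, 22.6% and 20.5%, and 7.73% and 8.48% in these 3 comparisons. The licensing factor CDT1 had the largest fall of the 36 for the combination against imatinib (-0.56 ± 0.10, adjusted p = 0.00153).

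The 22 regulators of G1 and S phase changed in both directions with imatinib, 4 higher (18.2%) and 8 lower (36.4%) against 26.3% and 27.5% of all genes tested, with RBL2, a relative of the retinoblastoma protein, at 0.93, the CDK inhibitor CDKN1B at 0.74 and the phosphatase CDC25A at -0.84. With MLN4924, 4 were higher (18.2%, against 7.36% of all genes tested) and none lower (7.11%) than in control cells, and the CDK inhibitor CDKN1A had the largest rise (1.31 ± 0.19, adjusted p = 0.00132). With the combination, 11 of the 22 (50%) were higher and 1 (4.55%) lower than in control cells, against 12.2% and 13.9% of all genes tested. Set against imatinib, 9 (40.9%) were higher and 3 (13.6%) lower, against 22.6% and 20.5%. Set against MLN4924, 3 (13.6%) were higher and 1 (4.55%) lower, against 7.73% and 8.48%. Of 24 mitosis genes, 13 were higher (54.2%) and 2 lower (8.33%) with imatinib, and 20 were higher (83.3%) and none lower with MLN4924. Over all genes tested, 26.3% and 27.5% were higher and lower with imatinib, and 7.36% and 7.11% with MLN4924. KIF20A, a kinesin of cytokinesis, was at 0.79 ± 0.07 (SE, adjusted p = 3.36e-05) with MLN4924. With the combination, 22 of the 24 (91.7%) were higher than in control cells and none was lower, where 12.2% of all genes tested were higher and 13.9% lower. The median log2 fold change of the mitosis genes was 0.23 with imatinib and 0.42 with MLN4924 against control, beside -0.13 and -0.08 for the fork genes. The medians with imatinib were 0.21 for the mitosis genes and -0.21 for the fork genes without imatinib replicate 3.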

How the data were processed

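RNA was sequenced from K562 cells in 12 libraries, 3 for each of 4 groups, with the groups taken from the labels. Per the methods, the authors used fastp for trimming, HISAT2 for alignment (hg38) and StringTie for quantification, and deposited 1 TPM value per gene and library. TPM keeps no read number, so sequencing depth is unknown and intervals for counting error cannot be given. The paper names DESeq2, which needs counts and was not run. The 691 assembled loci were left out.

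Values were read as log2(TPM + 1), since a pseudocount of 1 keeps low genes stable, and fold changes are on that scale. The 15478 genes that reached 1 TPM in 3 or more libraries were tested with limma 3.58.1 (trend) in R 4.3.3, 1 coefficient per group and all 12 libraries in 1 fit, with Benjamini-Hochberg adjustment across the whole set of tested genes and a threshold of 0.05. The fit was tested on simulated data. Other steps used Python 3.11.15, pandas 2.3.3, numpy 2.4.6, scipy 1.17.1 and matplotlib 3.10.9.

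The 50 genes, the gene lists and the tests were chosen with earlier results of these data known, so no list is independent evidence. Values in every library are given for genes among the 5 largest rises or falls past the threshold in any comparison and for subunits of one complex that passed in opposite directions, and from each other list the 3 largest rises and falls per comparison may be named. CDC45, FEN1, RRM1, PCNA, RRM2, GINS4 and the other genes given with library values or ranges beyond this rule were added after their values were seen, as was the printing of promoters for genes with 1 RefSeq window. Alternatives were a pseudocount of 0.1, no filter, a filter of 5 TPM, a fit on the compared libraries alone, scaling by median of ratios, a replicate block and each library left out. Replicate numbers were not used to pair the libraries in the main fit.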

Additional observations from a re-analysis of the deposited data

Results flagged for a closer look

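The change of POLD2 with imatinib differed by the presence of MLN4924, by limma's test of the interaction (0.49 ± 0.15 on the log2 scale, SE, adjusted p = 0.0497, 3 libraries per group). Its log2 fold change was -0.25 for imatinib + MLN4924 against MLN4924 and -0.74 for imatinib against control. All 3 combination libraries were below all 3 MLN4924 libraries, and all 3 imatinib libraries below all 3 control libraries. The interaction no longer passed without any one of 10 of the 12 libraries, with an adjusted p of up to 0.118 (without imatinib replicate 2), while without imatinib replicate 3, the library that stood apart, it was 0.63 (adjusted p = 0.00265). With 3 libraries per group, no group was tested for a single outlying library.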

How the results depend on the processing

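No fold change of a fork gene changed sign past the threshold under any of the 18 alternatives, and 13 of the 21 calls with imatinib, 3 of 7 with MLN4924, 3 of 9 and 10 of 17 with the combination against control and against imatinib were kept in all of them. Of the 5 calls for the combination against MLN4924 and the 1 interaction (17 alternatives), 0 were kept in all. With no filter on low values, 4 genes were lower with MLN4924 (7 with the filter), 2 were higher and 3 lower with the combination against control (4 and 5), and 2 were higher against MLN4924 (5). Of the 32062 genes tested without a filter, 799 were lower with MLN4924. With the combination, 1493 were higher and 1648 lower than in control cells, and 770 were higher than with MLN4924. With only the libraries compared, 3 fork genes were higher for the combination against imatinib (9) and 3 against MLN4924 (5). Over all 15478 genes tested, 2723 (3492 with all libraries) and 932 (1196) were higher in these fits. The positive interactions, 1 with the chosen settings, numbered 0 with a pseudocount of 0.1, 0 with no filter, 3 with at least 5 TPM and 5 with median-of-ratios scaling. Over all genes tested they numbered 1402 of 15478, 1346 of 15478, 668 of 32062, 1539 of 11118 and 1673 of 15478, in the same order. Leaving out each library in turn gave 4 to 8 higher and 10 to 26 lower genes with imatinib, 0 to 2 and 3 to 7 with MLN4924, 1 to 4 and 2 to 10 with the combination against control, 3 to 18 and 8 to 10 against imatinib, 0 to 5 and 0 to 2 against MLN4924, and 0 to 14 positive and 0 to 1 negative interactions. Over all 15478 genes tested, 3460 to 4089 were higher and 3633 to 4400 lower with imatinib. With MLN4924 the ranges were 660 to 1336 and 680 to 1337. With the combination they were 1317 to 2073 and 1396 to 2528 against control, and 2575 to 3876 and 2405 to 3174 against imatinib. Against MLN4924 they were 542 to 1382 and 466 to 1884. Interactions ran from 574 to 2368 positive and from 481 to 1611 negative. The cause of these shifts was not tested, beyond the smaller number of libraries. Same-numbered libraries of different groups mostly did not deviate together (r of -0.06 to 0.19 over genes, median 0.01, at most 1 of 3 pairs over 0.1). The highest r (0.19) was between imatinib replicate 3 and imatinib + MLN4924 replicate 3, where pairs of other numbers reached 0.07. Whether these libraries were handled together was not tested. The fit with a replicate block gave 4 positive interactions in place of 1 and 1 negative in place of 0, where 1433 and 1120 of the 15478 genes tested passed. Without read numbers, the precision of the low values cannot be given.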

Other observations

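Among the other replication genes, 4 of 36 had a positive interaction by limma and none a negative one, where 9.06% and 7.35% of all genes tested passed. SAMHD1 (0.73 ± 0.20, SE, adjusted p = 0.0299), MCMBP (0.66 ± 0.20, adjusted p = 0.0490) and POLE3 (0.60 ± 0.15, adjusted p = 0.0218) were the largest, and all 3 were the largest falls of that list with imatinib against control. The change with imatinib against control enters the interaction with a minus sign, so this match is a description and no separate evidence. How far these calls rest on single libraries is not given here. Among the mitosis genes 3 of 24 had a negative interaction and none a positive one, with NUSAP1 at -0.74 ± 0.17 (adjusted p = 0.0167), and among the G1 and S phase regulators RBL2 was at -0.68 ± 0.15 (adjusted p = 0.0144) and E2F3 at 0.50 ± 0.13 (adjusted p = 0.0267).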
